A study of Homo sapiens with 12 samples.

Results

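Growth arrest genes were followed with 5 array probes for 4 genes: CDKN1A (ILMN_1784602 and ILMN_1787212), GADD45A (ILMN_2052208), GADD45B (ILMN_1718977) and BTG2 (ILMN_1770085), among 47230 probes on each array and 18812 genes named by the platform annotation or among these 4. The probes were chosen by gene, with earlier results of these data known. The platform annotation pairs 3 of the 5 with a gene. ILMN_1784602 and ILMN_1770085 were paired with CDKN1A and BTG2 through the array manufacturer's manifest. The cells were WM35, an established human melanoma line kept in medium with 5% serum. Control cells received the vehicle DMSO, with no time given in their titles, and treated cells received ciclopirox, an iron-binding antifungal, or crizotinib, a kinase inhibitor, for 8 h or 24 h. Both drugs were used at the concentration that inhibited by 75% at 72 h, and the concentrations themselves are not given in the sources used here. By title there were 2 control samples, 3 samples of each drug at 8 h and 2 samples of each drug at 24 h, all on 1 BeadChip of 12 arrays. The material is 1 cell line, and the labels do not say whether samples of a group were separate cultures, so p-values cover only the spread between these samples, which may be technical.

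CDKN1A encodes p21, an inhibitor that binds cyclin-dependent kinases and PCNA and holds cells before DNA replication. GADD45A and GADD45B encode small stress proteins that bind p21, PCNA and the kinase MAP3K4, and BTG2 encodes an antiproliferative protein that acts with the mRNA deadenylation machinery. CDKN1A, GADD45A and BTG2 are textbook targets of the transcription factor p53, while GADD45B is best known as a target of NF-kappa B and TGF-beta signalling.

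The 4 genes lie at chr6:36676463-36687332 (CDKN1A), chr1:67685201-67688334 (GADD45A), chr19:2476127-2478257 (GADD45B) and chr1:203305519-203309602 (BTG2) of GRCh38.p14. Promoter sequences from RefSeq (GRCh38.p14) matched 3 of the 4 genes: CDKN1A, GADD45B and BTG2. They are shown because 2 of these genes, CDKN1A and BTG2, moved together over the arrays and GADD45B did not move with them. A link between promoter sequence and these patterns was not tested. Each line gives the 150 bases before the transcript start given in that table, on the plus strand, 5′ to 3′. Capitals mark matches, searched on either strand, to the motifs of 3 common promoter elements. The first element, known as the GC box, was searched as GGGCGG. The element bound by the factor NF-Y was searched as CCAAT. The element near which transcription often starts was searched as TATAAA. Overlapping matches run together.
CDKN1A, chr6:36678564-36678713: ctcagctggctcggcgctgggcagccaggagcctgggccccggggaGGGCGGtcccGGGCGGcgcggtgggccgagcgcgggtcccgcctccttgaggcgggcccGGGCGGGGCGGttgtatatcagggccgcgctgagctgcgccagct
GADD45B, chr19:2475977-2476126: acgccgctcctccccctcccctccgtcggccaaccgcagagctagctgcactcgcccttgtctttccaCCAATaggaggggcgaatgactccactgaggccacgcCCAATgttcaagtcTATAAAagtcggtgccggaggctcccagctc
BTG2, chr1:203305369-203305518: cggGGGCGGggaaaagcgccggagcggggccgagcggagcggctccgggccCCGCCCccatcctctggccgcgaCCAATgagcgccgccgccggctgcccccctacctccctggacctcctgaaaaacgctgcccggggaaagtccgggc

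The CDKN1A stretch held 4 matches to GGGCGG, and the BTG2 stretch held 2 of them and 1 CCAAT. The GADD45B stretch held 2 CCAAT and 1 TATAAA and no GGGCGG. In windows of 300 bases (250 before to 50 after the start), GGGCGG was found in 45% of 35116 RefSeq promoters, CCAAT in 34.6% and TATAAA in 11.5%. CACGTG, found in 7.26% of them, matched 1 time in the GADD45B window. TGACGTCA, found in 1.85% of promoters, matched in none of the 3 windows. The same held for TGATGNAAN, found in 3.61%. A match describes the letters and is not a binding site.

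The deposited tables did not agree on which array is which sample, and this bears on every comparison by drug and time. One table holds scanner intensities under array positions A to L, which the sample descriptions tie to samples. The other, called the value table here, holds processed values under sample names. After centring each probe, each array was set against each value table column over the 12599 probes detected on all arrays and present in both tables. Each array matched 1 column at a correlation across probes between 0.949 and 0.987, and its second-best column reached at most 0.680. For 2 of 12 arrays, the controls A and B, the matched column was that of the described sample. For the other 10, the correlation with the described sample's column lay between -0.629 and 0.567.

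**Figure D1:**
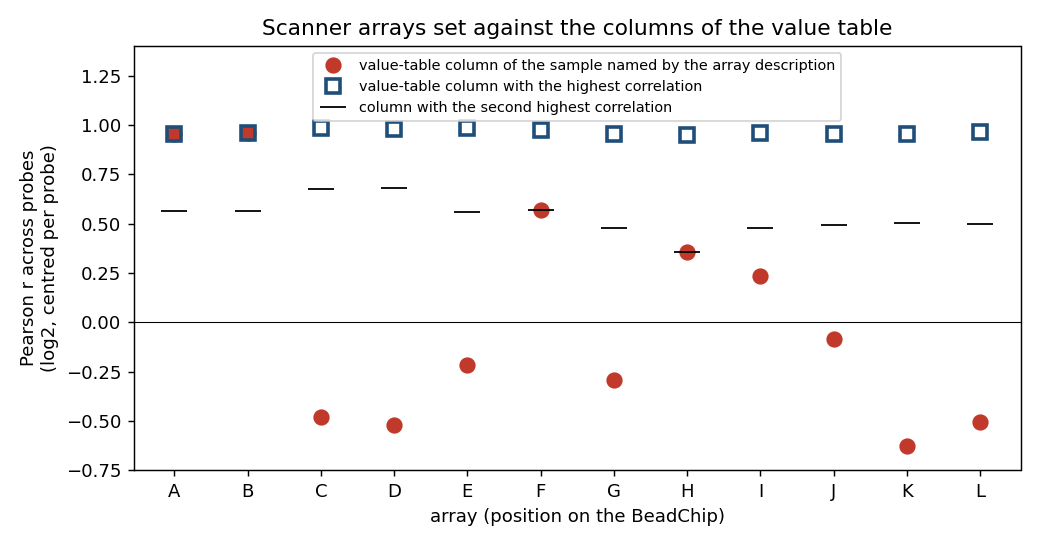
Pearson correlation across probes (y axis) of each array (x axis, BeadChip position) with columns of the value table. Circles mark the sample named in the array's description, squares the best column and bars the second-best column. Circle and square coincide for A and B, the controls, and for no other array.

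By descriptions, arrays C to E are ciclopirox 8 h, F and G ciclopirox 24 h, H to J crizotinib 8 h, and K and L crizotinib 24 h. By their matches in the value table, C and D are crizotinib 24 h, E and F ciclopirox 24 h, G to I crizotinib 8 h, and J to L ciclopirox 8 h. The labels do not say which assignment is right, so array values are given first and each comparison is then given under both. Arrays of 1 label correlated on average at 0.15 by description (lowest -0.26) and at 0.36 by value table (lowest 0.16), and the highest correlation between labels was 0.51 and 0.16. By description 5 of 12 arrays were most like an array of their own label, and by value table all 12 were. The value table is a processed version of the same arrays, so these figures describe how the groups hold together and do not settle the assignment. Groups lie in neighbouring positions under both, so group and position cannot be told apart. In bulk RNA, fewer cells that express a gene and less RNA per cell cannot be told apart either. Arrays detected between 15561 and 17106 probes (detection p below 0.01), with mean intensities from 346 to 398. Of the melanocyte lineage markers, SOX10 was detected on 12 arrays and MITF on 11. MLANA, PMEL, TYR, TYRP1 and S100B were detected on 0, and so were the markers of fibroblasts (COL1A1, COL3A1), keratinocytes (KRT5, KRT14) and leukocytes (PTPRC, CD3E).

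CDKN1A transcripts were high on arrays C to F. On the normalised log2 scale, ILMN_1784602 read 11.55 and 11.40 on the controls A and B, 13.93 on C, 13.67 on D, 13.70 on E and 13.68 on F. It read 11.61 on G, 11.64 on H, 11.71 on I, 11.40 on J, 11.44 on K and 11.37 on L. The 4 arrays C to F thus read above the other 8, and the probe was detected on all 12. These 4 were singled out by the values themselves, and the share of all probes that separate them is not given. The second CDKN1A probe, ILMN_1787212, read 7.28 on C, 7.30 on D, 6.39 on E and 6.45 on F. These were the 4 arrays that detected it. It entered the tests below, which required detection on 2 or more arrays, only through these 4, where it is high. Its calls and its place in the counts below are therefore no separate support. On the other 8 arrays its detection p was 0.01 or more, and it read between 4.55 and 4.84, which is background. The CDKN1A probes differed within the high arrays: ILMN_1787212 was higher on C and D than on E and F, whereas ILMN_1784602 on D lay at the level of E and F.

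GADD45A was also high on C to F, but in another order. ILMN_2052208 read 9.998 and 10.20 on the controls A and B, 11.24 on C, 11.26 on D, 12.14 on E and 11.99 on F. It read 10.32 on G, 10.46 on H, 10.38 on I, 10.27 on J, 10.49 on K and 10.38 on L. E and F were highest, C and D intermediate, and the remaining treated arrays lay just above both controls. A further GADD45A probe in the platform annotation, ILMN_1694075, which is not among the 5, read 11.60 on E, 11.48 on F, 10.79 on C and 10.51 on D, and between 9.42 and 9.84 on the other 8 arrays.

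GADD45B had a pattern of its own. ILMN_1718977 read 7.59 and 7.50 on the controls A and B, 7.10 on C, 7.57 on D, 8.48 on E and 8.52 on F. It read 7.82 on G, 7.71 on H, 7.75 on I, 8.07 on J, 8.21 on K and 8.26 on L. E and F were highest, J to L came next, and C was the lowest of all 12, with D among the controls.

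BTG2 was high on C to F at similar levels. ILMN_1770085 read 5.79 and 5.67 on the controls A and B, 8.00 on C, 8.08 on D, 7.71 on E and 7.88 on F. It read 6.08 on G, 6.27 on H, 6.11 on I, 5.09 on J, 5.92 on K and 5.66 on L. The arrays C to F again read above the others, and the share of all probes that do so is not given. On array J the deposited detection value was 0.0234, so the probe was not detected there.

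**Figure D2:**
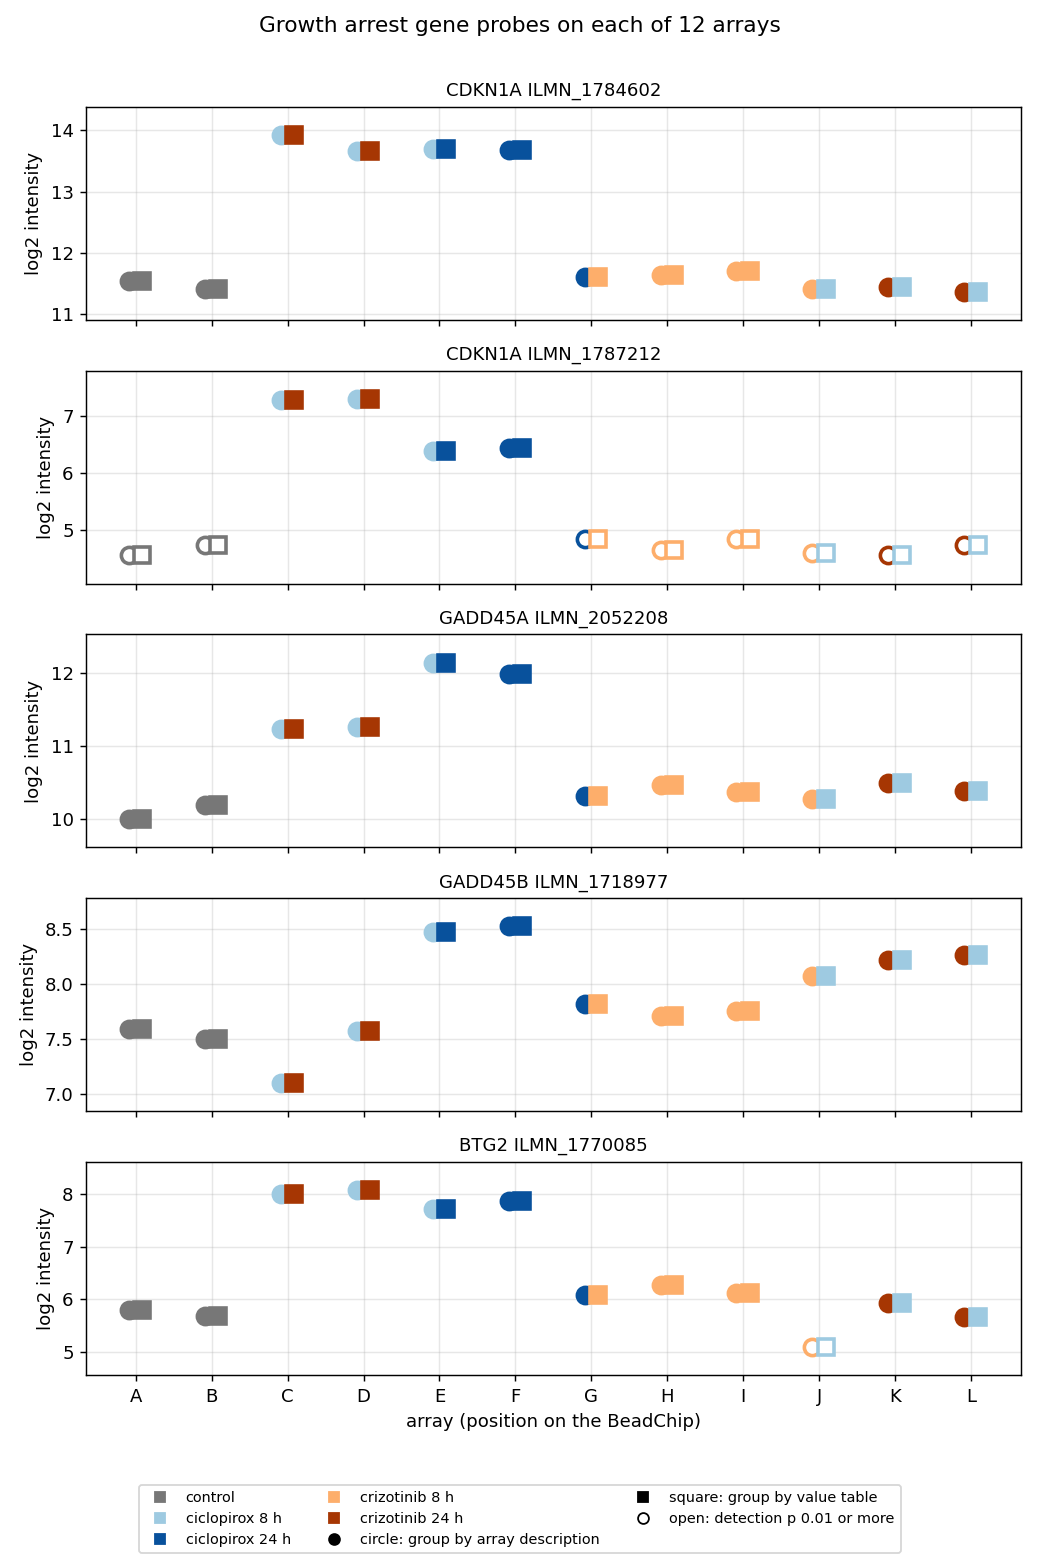
Normalised log2 intensity (y axes) of the 5 probes on arrays A to L (x axis). Circles are coloured by the group in the array description and squares by the group in the value table, and open symbols mark a detection p of 0.01 or more. CDKN1A, GADD45A and BTG2 are high on C to F, and GADD45B is high on E, F and J to L.

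Over the 12 arrays, ILMN_1784602 correlated at 0.97 with ILMN_1787212, at 0.97 with BTG2, at 0.91 with GADD45A and at 0.00057 with GADD45B. GADD45A and GADD45B correlated at 0.39. These correlations rest on shared arrays in a few groups and are descriptions. The probes whose patterns were most like CDKN1A belonged to ACTA2 (r = 0.99), encoding a smooth muscle actin, and PHLDA3 (r = 0.99), a repressor of AKT signalling. For GADD45A they belonged to CCNL1 (r = 0.98), a cyclin of the splicing machinery, and DDIT3 (r = 0.98), which encodes the stress factor CHOP. For GADD45B they belonged to TUFT1 (r = 0.97) and VEGFA (r = 0.95), the vascular growth factor. For BTG2 they belonged to PHLDA3 (r = 0.98) and BEX2 (r = 0.98).

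With groups taken from the array descriptions, CDKN1A and BTG2 were higher after 8 h of ciclopirox than in controls. ILMN_1784602 was at 13.77 ± 0.14 (SD, n = 3) against 11.48 ± 0.10 (SD, n = 2), which is higher by 2.29 in log2 (SE 0.42, limma adjusted p = 0.0303). ILMN_1787212 was not well above background on either control, so CDKN1A was at least 3.18-fold higher by this probe (limma adjusted p = 0.0261). Such a bound compares the bright group's mean with a floor. On each dim array the floor is the dimmest signal of any detected probe or, if higher, the reading of the probe itself. For the value table, the dimmest signal was taken over the 12599 probes detected on all arrays and present in both tables. BTG2 was higher by 2.20 (SE 0.44, limma adjusted p = 0.0333). GADD45A differed by 1.45 (SE 0.39, limma adjusted p = 0.067) and GADD45B by 0.17 (SE 0.33, limma adjusted p = 0.804). Neither passed the test, though GADD45A did so in some alternative settings given below. In this fit 3 of 5 probes were higher at an adjusted p below 0.05. Of all 18285 probes tested, 2.84% passed in either direction and 1.5% were higher. These 3 include ILMN_1787212, which entered the test only through the arrays where it is high. The count fell to 0 without control replicate 1, without control replicate 2 or without ciclopirox 8 h replicate 1. Leaving out a control leaves 1, which is then assumed to vary like the other groups. Under this assignment, 8 h arrays of both drugs with the same replicate number in their titles deviated together. By the value table both of these 8 h groups mix labels, and pairing cannot be told apart from such a mix. With the number as a block the count was again 3, while the count over all probes was 1353 in place of 519.

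The other groups by description gave no calls against control. After 24 h of ciclopirox the differences were 1.17 for CDKN1A at ILMN_1784602, 1.06 for GADD45A, 0.63 for GADD45B and 1.25 for BTG2, with limma adjusted p from 0.475 to 0.613. For ILMN_1787212 no size is given, since it was detected on 1 of the 2 ciclopirox arrays and on neither control (limma adjusted p = 0.489). There 0 of 5 probes passed, against 0.00547% of all probes. The 2 arrays of that group lay far apart: by ILMN_1784602, F read 13.68 and G 11.61. Without ciclopirox 24 h replicate 2, which is array G, 1 of 5 passed (ILMN_1784602). That leaves F as the 1 array of the group, so the spread in that fit comes from the other groups, and the call has no replicate behind it. Crizotinib gave 0 of 5 at 8 h and 0 of 5 at 24 h. The differences of the 4 probes other than ILMN_1787212, which was at background, lay between 0.09 and 0.30 at 8 h and between -0.07 and 0.69 at 24 h. By limma 0% of all probes passed in either comparison, and 1015 and 1076 had an unadjusted p below 0.05.

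With groups taken from the value table, CDKN1A, GADD45A and BTG2 passed as higher at 24 h under both drugs, GADD45B did so under ciclopirox, and no probe passed at 8 h. ILMN_1784602 is not in that table, which leaves 4 probes, tested among 16216. These 4 include ILMN_1787212, which entered the test only through C to F, the 24 h arrays of this assignment. After 24 h of ciclopirox, 4 of 4 were higher, where 13.6% of all probes passed and 6.57% were higher. GADD45A read 12.14 and 12.001 in the ciclopirox samples and 10.03 and 10.17 in the controls, which is higher by 1.97 in log2 (SE 0.11, limma adjusted p = 4.55e-06). BTG2 read 7.57 and 7.73 against 5.54 and 5.23, a difference of 2.26 (SE 0.31, limma adjusted p = 0.00125). GADD45B read 8.38 and 8.44 against 7.60 and 7.38, a difference of 0.92 (SE 0.16, limma adjusted p = 0.00383). In each of these the ciclopirox samples lay above both controls. Groups of 2 can separate in this way without a difference, and the share of all probes that did is not given. CDKN1A, by ILMN_1787212, read 6.08 and 6.10 and was at least 2.20-fold higher than in the controls, at 4.42 and 4.64 and not above background (limma adjusted p = 0.000573).

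After 24 h of crizotinib in the value table, 3 of 4 probes were higher, where 18.2% of all probes passed and 9.11% were higher. CDKN1A read 7.10 and 7.13 by ILMN_1787212 and was at least 4.47-fold higher than in the controls (limma adjusted p = 1.12e-05). BTG2 read 7.87 and 7.97, a difference of 2.54 (SE 0.31, limma adjusted p = 0.000415). GADD45A read 11.23 and 11.24, a difference of 1.13 (SE 0.11, limma adjusted p = 6.68e-05). The crizotinib samples lay above both controls for these 3 probes. GADD45B read 6.98 and 7.43 and did not pass (difference -0.28, SE 0.16, limma adjusted p = 0.243), with 1 sample below and 1 within the range of the controls.

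At 8 h by the value table, 0 of 4 probes passed for ciclopirox (0.555% of all probes) and 0 of 4 for crizotinib (1.44% of all probes). GADD45B after ciclopirox came nearest, at 7.92, 8.11 and 8.21, with a difference of 0.59 (SE 0.14, limma adjusted p = 0.101). GADD45A differed by 0.26 under ciclopirox and by 0.30 under crizotinib (limma adjusted p = 0.284 and 0.18). CDKN1A, by ILMN_1787212, was at background in both. BTG2 differed by -0.18 and 0.52 (limma adjusted p = 0.856 and 0.442). The 4 comparisons with control share the same 2 control samples in each assignment. These controls carry no time, so drug and time in culture cannot be told apart.

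**Figure D3:**
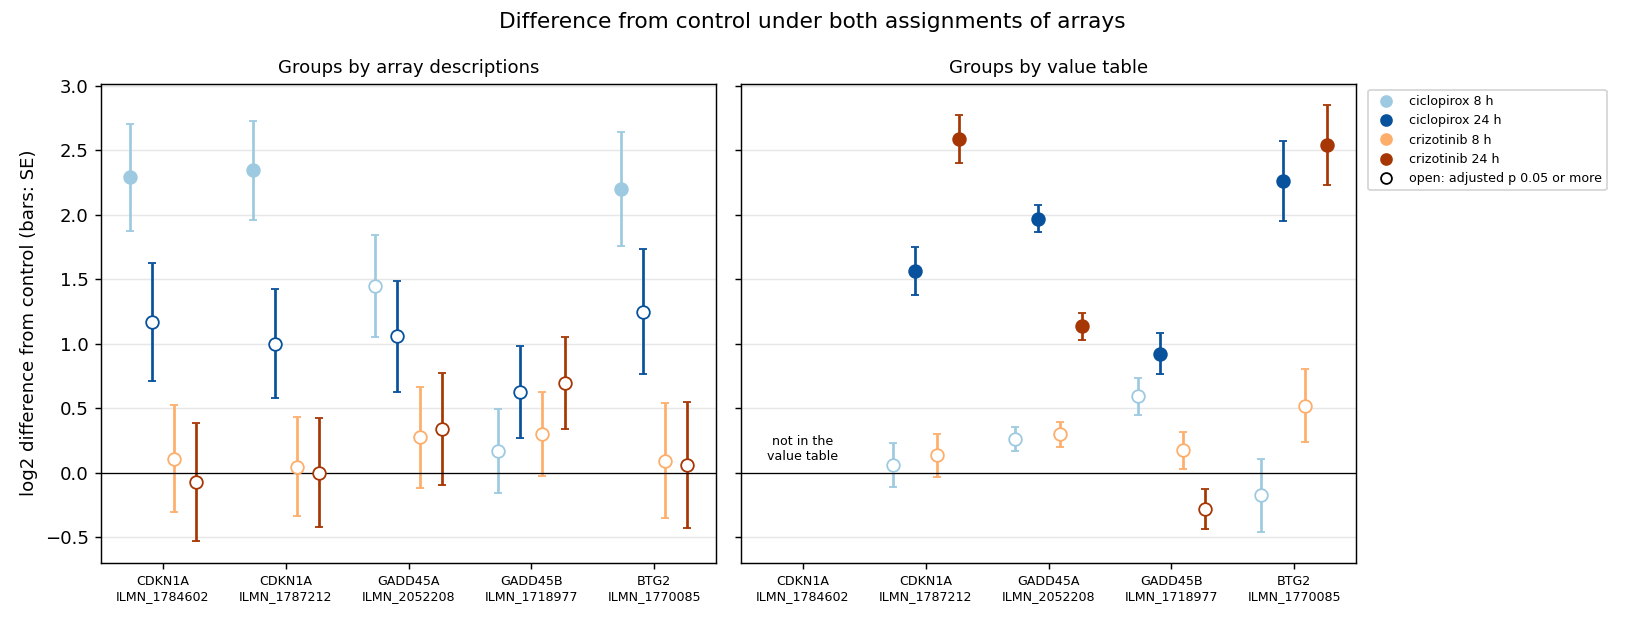
Log2 difference from control (y axis, bars are SE) of each probe (x axis) for the 4 treated groups, with groups by array description at left and by value table at right. Filled points have a limma adjusted p below 0.05, and points of ILMN_1787212 are set against controls at background, so they are no measured folds. The filled points belong to ciclopirox 8 h at left, and to ciclopirox 24 h and crizotinib 24 h at right.

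The drugs differed from each other at 24 h by the value table in 3 of 4 probes, where 13.9% of all probes passed. CDKN1A by ILMN_1787212 was lower under ciclopirox than under crizotinib, by a log2 value of -1.02 (SE 0.19, limma adjusted p = 0.00463). GADD45A was higher under ciclopirox by 0.84 (SE 0.11, limma adjusted p = 0.000531) and GADD45B by 1.21 (SE 0.16, limma adjusted p = 0.000612). BTG2 did not pass, and its difference of -0.27 had a 95% interval from -0.96 to 0.41. The order of CDKN1A rests on 1 probe, since on the matched arrays ILMN_1784602 read 13.70 and 13.68 for ciclopirox and 13.93 and 13.67 for crizotinib, which overlap. By description, 0 of 5 probes differed between the drugs at 24 h, against 0% of all probes by limma, with 1653 at an unadjusted p below 0.05.

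Between the drugs at 8 h, the assignments again gave different calls. By description 3 of 5 probes were higher under ciclopirox than under crizotinib, where 2.85% of all probes passed and 1.6% were higher. CDKN1A differed by 2.18 at ILMN_1784602 (SE 0.37, limma adjusted p = 0.0267) and was at least 3.16-fold higher at ILMN_1787212 (limma adjusted p = 0.0258), and BTG2 differed by 2.11 (SE 0.40, limma adjusted p = 0.0336). GADD45A differed by 1.17 (limma adjusted p = 0.0798) and GADD45B by -0.13 (limma adjusted p = 0.833). This count was 0 without ciclopirox 8 h replicate 1 or 2 or without any 1 of the 3 crizotinib 8 h arrays, and 1 without either control or either crizotinib 24 h array. With the replicate block it was again 3, and the count over all probes was 1119 in place of 522. By the value table there was no such difference (0 of 4 probes, against 3.8% of all probes).

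The change from 8 h to 24 h passed for both drugs in the value table. No controls were labelled by time, so longer drug exposure and longer time in culture cannot be told apart here. Under ciclopirox, 3 of 4 probes were higher at 24 h, where 16.2% of all probes passed and 9.17% were higher. GADD45A was higher by 1.71 (SE 0.10, limma adjusted p = 8.72e-06) and BTG2 by 2.44 (SE 0.28, limma adjusted p = 0.000472), and CDKN1A was at least 2.27-fold higher by ILMN_1787212 (limma adjusted p = 0.000373). GADD45B differed by 0.33 (SE 0.14, limma adjusted p = 0.14). Under crizotinib 4 of 4 probes passed, where 18.7% of all did. CDKN1A was at least 4.71-fold higher at 24 h (limma adjusted p = 9.60e-06), GADD45A higher by 0.83 (SE 0.10, limma adjusted p = 0.000266) and BTG2 by 2.02 (SE 0.28, limma adjusted p = 0.000839). GADD45B was lower, at -0.46 (SE 0.14, limma adjusted p = 0.0474), a call that was lost in 15 of 18 alternative settings (adjusted p from 0.0155 to 0.366). By description 0 of 5 probes passed for either drug, against 0% of all probes by limma, with 2582 and 902 at an unadjusted p below 0.05.

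Other p53 target genes were high with CDKN1A and BTG2. Of 20 listed genes, 18 had a tested probe. FAS was detected on 4 arrays, C to F, and entered the test only through these. By the value table, 12 of 18 were higher after 24 h of ciclopirox (median log2 difference 1.10, against -0.03 over all probes) and 15 of 18 after 24 h of crizotinib (median 1.12, against -0.02), with 0 lower. Of all probes, 6.57% and 9.11% were higher in these comparisons. At 8 h it was 0 of 18 under either drug, where 0.555% and 1.44% of all probes passed. After 24 h of crizotinib the largest differences were those of TP53INP1, which promotes cell death and autophagy (2.59), SESN1, a stress-response inhibitor of mTORC1 (2.37), the RNA-binding protein ZMAT3 (2.11) and PHLDA3 (1.80). After 24 h of ciclopirox, SESN2, a second sestrin, stood first at 2.74 (SE 0.22, limma adjusted p = 6.08e-05), followed by TP53INP1 at 1.83, SESN1 at 1.64 and PHLDA3 at 1.62. SESN2 was detected on control A and not on control B. It did not pass under crizotinib (0.46, limma adjusted p = 0.178), and the difference between the drugs was 2.28 (SE 0.22, limma adjusted p = 7.64e-05). Between the drugs, 2 of 18 were higher and 6 of 18 lower under ciclopirox at 24 h, where 13.9% of all probes passed. The lower one with the largest difference was TP53I3, a quinone oxidoreductase (-1.05, limma adjusted p = 0.000136). By description, 8 of 18 were higher after 8 h of ciclopirox than in control (median 1.07, against -0.01 over all probes), led by TP53INP1 at 2.12 (limma adjusted p = 0.0113), and 0 of 18 in the other 3 groups. Against crizotinib at 8 h, 11 of 18 were higher. The shares of all probes that were higher in these 2 comparisons were 1.5% and 1.6%.

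Some genes of the cell cycle that p21 and the GADD45 proteins bind or restrain were lower at 24 h by the value table. Of 14 listed, 13 were tested. By the value table, lower values were found for 5 of 13 genes after 24 h of ciclopirox (median -0.25) and for 8 of 13 after 24 h of crizotinib (median -0.50), with 0 higher, where 7.04% and 9.08% of all probes were lower. The cyclins of the G2 and mitotic phases were lowest: CCNB1 at -1.31 (SE 0.14, limma adjusted p = 0.000255) and CCNA2 at -0.95 (SE 0.13, limma adjusted p = 0.00131) under ciclopirox, and -0.74 and -0.98 under crizotinib (limma adjusted p = 0.00412 and 0.000774). Under ciclopirox PCNA, the replication clamp, was at -0.54 and CDK1, the mitotic kinase, at -0.50 (limma adjusted p = 0.0229 and 0.0424). CDK2 and CCNE1, which start DNA replication, were lower after crizotinib (-0.59 and -0.57, limma adjusted p = 0.00325 and 0.0122). At 8 h the 1 call against control was CCND1, the G1 cyclin, higher after ciclopirox by 0.57 (limma adjusted p = 0.0319). That is 1 of 13, where 0.555% of all probes passed. CCND1 was also the 1 call between the drugs at 8 h, higher under ciclopirox by 0.39 (limma adjusted p = 0.0357), where 3.8% of all probes passed. By description, 0 of 13 passed against control in any group, where at most 2.84% of all probes passed. Between the drugs at 8 h, 1 of 13, CCNA2, was lower under ciclopirox (-1.11, limma adjusted p = 0.0493), where 2.85% of all probes passed.

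**Figure D4:**
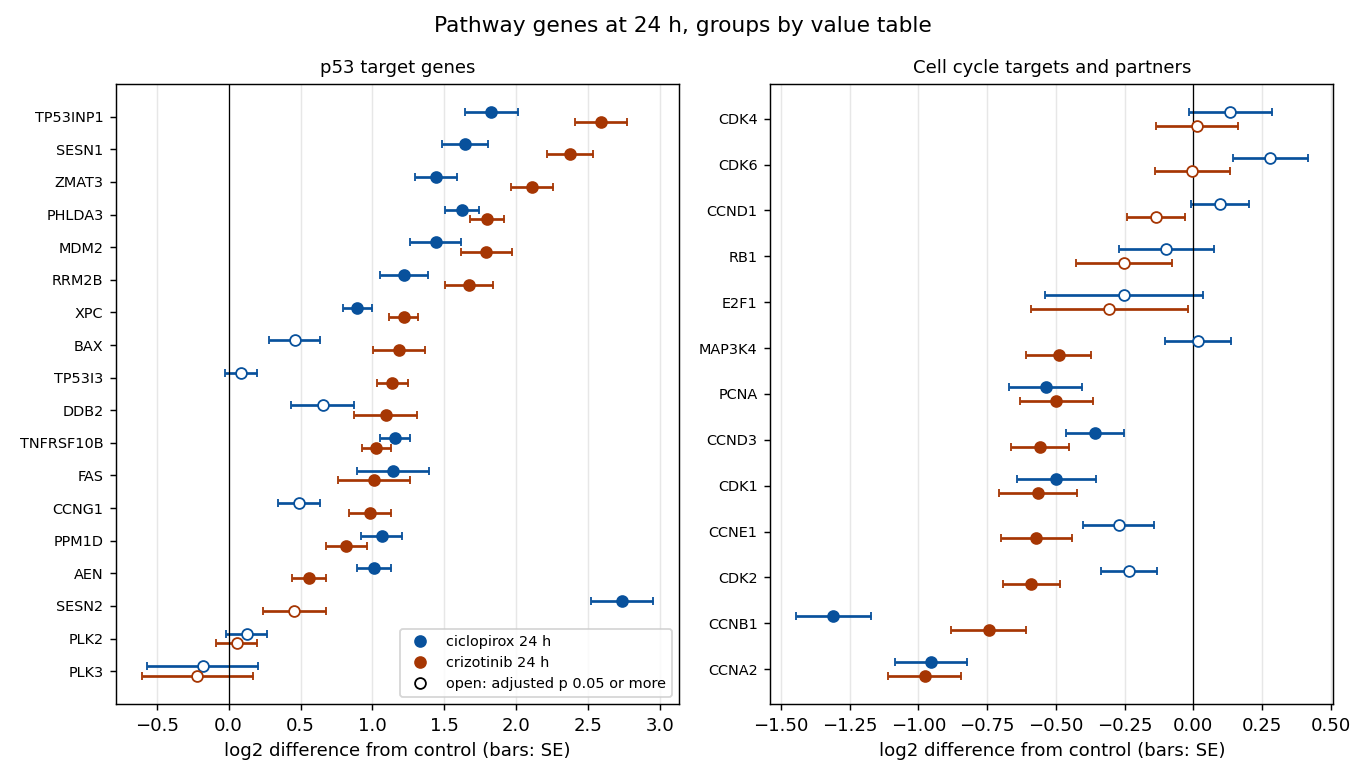
Log2 difference from control at 24 h (x axes, bars are SE) with groups by value table, for 18 p53 target genes (left) and 13 cell cycle targets and partners (right). Filled points have a limma adjusted p below 0.05. At left 12 genes pass under ciclopirox and 15 under crizotinib, all higher, and at right 5 and 8 pass, all lower.

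Relatives of the 4 genes moved in both directions. Of 8 listed, 7 were tested. By the value table, 3 of 7 passed after 24 h of each drug, where 13.6% (ciclopirox) and 18.2% (crizotinib) of all probes passed. BTG1, an antiproliferative relative of BTG2, was higher after 24 h of ciclopirox (1.03, limma adjusted p = 0.000485) and of crizotinib (0.83, limma adjusted p = 0.00107), and by description it was the 1 call of 7 after 8 h of ciclopirox (0.96, limma adjusted p = 0.0443), where 2.84% of all probes passed. TOB1, of the same family, was higher after 24 h of crizotinib (0.71, limma adjusted p = 0.038). The p21 relative CDKN1B was lower after 24 h of ciclopirox (-0.56, limma adjusted p = 0.0398). So was CDKN1C, which was detected on 6 of 12 arrays, so that no size is given. GADD45GIP1, a mitochondrial protein that binds the GADD45 proteins, was lower after 24 h of crizotinib (-0.59, limma adjusted p = 0.0404). Of 4 inhibitors of the INK4 group, 3 were tested, and against control 1 passed: CDKN2A was higher after 24 h of crizotinib by the value table (0.67, limma adjusted p = 0.0376), and was not detected on control B. That is 1 of 3 where 18.2% of all probes passed, and nothing is read from it.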

How the data were processed

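Total RNA (300 ng per sample) was amplified, biotin-labelled and hybridised to Illumina HT-12 BeadChips, per the labels' protocols. Per the file headers, the deposited scanner table gives 47230 probes, each with its mean intensity and a detection p-value on every array. The submitters' processing notes name GenomeStudio, with no version. The value table holds deposited intensities of 38223 probes on a linear scale (the authors' normalisation not given in the sources used here). The number of unused per-sample columns was 0.

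Scanner intensities were normalised with neqc in limma 3.58.1 (R 4.3.3), with an offset of 16. The filter required detection (p under 0.01) on 2 or more arrays (18285 probes kept, of which 16216 are in the value table, where log2 of the deposited values was used). One mean per group was fitted over all 12 arrays with lmFit and eBayes, with Benjamini-Hochberg adjustment over all kept probes and a threshold of 0.05. The procedure was run on simulated data with independent noise and known groups, so that run does not bear on the mismatch of sample labels. The number of arrays limits the precision.

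The planned comparisons took samples from the array descriptions. The value table was planned as an alternative, and its use as a second full assignment was chosen after the mismatch between the tables was seen. Groups in both fits came from the deposited labels. The match of arrays to value table columns was made from their values. Probe detection in the value table was read from the matched arrays, which sets the fold bounds there.

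Members and gene lists were chosen with earlier results of these data known. Genes named are the members, the 2 most similar probes for each gene, and at most 4 passing genes per list and comparison, 1 probe per gene (highest mean). The platform table pairs 27004 probes with 1 gene symbol and 4 with several, and 11215 probes of the value table are not in it. Same-numbered 8 h arrays of both drugs deviated together in all 3 pairs by description (correlations 0.169, 0.335 and 0.299) and not by value table (-0.04, -0.09 and 0.03). Alternatives covered filters, normalisation, background correction, arrays in the fit, array weights, the replicate block and leaving out each array.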

Additional observations from a re-analysis of the deposited data

Results flagged for a closer look

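By the value table, the level of several probes differed between 24 h and 8 h of the same drug, by limma's test of that difference. Drug exposure and time in culture cannot be told apart in it. Under ciclopirox the log2 differences were 1.50 for CDKN1A (ILMN_1787212), 1.71 for GADD45A and 2.44 for BTG2. Under crizotinib they were 2.45 for CDKN1A (ILMN_1787212), 0.83 for GADD45A, -0.46 for GADD45B and 2.02 for BTG2. CDKN1A was at background at 8 h, so its differences are no measured folds. By array description none of the 5 probes differed between the times (0 passed by limma, with 2582 and 902 of all probes at an unadjusted p below 0.05).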

How the results depend on the processing

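The series matrix changes the sample names, the normalisation and the probe set together (ILMN_1784602 is not in it), so its effect cannot be assigned to any 1 of them. With its values in place of the scanner intensities, the count was 0 in place of 3 for ciclopirox at 8 h against control and 0 in place of 3 against crizotinib at 8 h. It was 4, 3, 3, 3 and 4 in place of 0 for ciclopirox 24 h and crizotinib 24 h against control, for the drugs at 24 h, and for 24 h against 8 h of ciclopirox and of crizotinib. With no filter on dim probes, ciclopirox at 8 h gave 1 against control and 0 against crizotinib. Without arrays E, G and J, 3 arrays picked in earlier work because their values resembled another label, ciclopirox at 24 h gave 5 against control, 4 against crizotinib and 3 against 8 h. That group is then array F alone, with the spread taken from the other groups, so these counts support no call. In the value table, array weights gave 1 for ciclopirox at 8 h against control, in place of 0. By description, GADD45A after 8 h of ciclopirox passed against control with another background correction (normexp, offset 50, limma adjusted p = 0.0372) and with array weights (0.00936). It did not pass in 16 of 21 settings. Against crizotinib at 8 h it passed with these 2 (0.0476 and 0.0401) and with median centring (0.0476), and did not in 14 of 21 with the same direction.

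Leaving out each array in turn, which leaves 1 array in a group of 2 and assumes that it varies like the others, gave, by description, 0 to 4 for ciclopirox at 8 h against control and against crizotinib, 0 to 1 for ciclopirox at 24 h against control and against crizotinib, and 0 to 2 for ciclopirox at 24 h against 8 h. The other description counts were 0 throughout. By value table every count was as reported, except 3 to 4 for crizotinib at 24 h against 8 h.

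With the replicate block, ciclopirox at 8 h by description again gave 3 against control and 3 against crizotinib, and the block changed no other count by description. By value table, where same-numbered 8 h samples did not deviate together, crizotinib at 24 h against 8 h gave 3 with the block in place of 4.

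Signs turned for these probes, and none of the values given passed the threshold except where said. By description, with median centring, crizotinib at 8 h against control gave -0.021 for ILMN_1784602 and -0.031 for BTG2, crizotinib at 24 h gave 0.012 for ILMN_1787212 and -0.058 for BTG2, and GADD45B gave 0.082 for ciclopirox against crizotinib at 8 h. With the series matrix values, BTG2 gave -0.18 for ciclopirox at 8 h against control, crizotinib at 24 h gave 2.58 for ILMN_1787212 (limma adjusted p = 1.12e-05, a fitted value against controls at background and no measured fold) and -0.28 for GADD45B, and ciclopirox against crizotinib at 8 h gave -0.074 for ILMN_1787212, -0.038 for GADD45A, 0.42 for GADD45B and -0.70 for BTG2. GADD45B at 8 h of ciclopirox against control gave -0.12 with array weights, -0.077 with the replicate block and -0.21 without E, G and J. The ranges without 1 array each were -0.21 to 0.48 for that GADD45B difference and -0.51 to 0.18 for GADD45B between the drugs at 8 h. They were -0.034 to 0.13 for ILMN_1787212 and -0.13 to 0.46 for BTG2 at 8 h of crizotinib, and -0.095 to 0.095 and -0.075 to 0.19 at 24 h. By value table they were -0.048 to 0.20 for ILMN_1787212 and -0.46 to 0.097 for BTG2 at 8 h of ciclopirox.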

Other observations

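Genes known to respond to low oxygen or iron binding were looked up after the values had been seen. Of 8 such genes, 5 had a kept probe. Counted over the arrays each assignment calls ciclopirox, 1 gene (NDRG1) by description and 2 genes (VEGFA and BNIP3) by value table were higher on all ciclopirox arrays than on all others. The share of all probes that separate in this way is not given, and these counts were not tested. By limma, 3 of 5 were higher under ciclopirox than under crizotinib at 8 h by value table (3.8% of all probes passed), and 4 of 5 at 24 h (13.9% of all probes). By description 0 of 5 passed at 8 h (2.85% of all probes) and 0 of 5 at 24 h (0% of all probes, with 1653 at an unadjusted p below 0.05). Against control by value table, 1 of 5 was higher after 8 h of ciclopirox (0.555% of all probes passed) and 2 of 5 after 24 h (13.6%). Crizotinib gave 0 of 5 at 8 h (1.44%), and 1 of 5 higher and 2 of 5 lower at 24 h (18.2%). Against control by description, 1 of 5 was higher after 8 h of ciclopirox (2.84%), and none passed in the other groups. The genes were chosen with these values in view, and which assignment is right was not tested.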
